A study of Mus musculus with 9 samples.

Results

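Interleukin-1 (IL-1) signaling was examined through 8 genes of the 53801 listed in each library: the ligands Il1a, Il1b and Il18, the receptor antagonist Il1rn, the decoy receptor Il1r2, the signaling receptor chains Il1r1 and Il1rap, and the IL-18 inhibitor Il18bp. The genes were chosen by name, as the IL-1 and IL-18 ligands with their receptors and soluble inhibitors, but with earlier results of these data known. All 8 were found in the count tables. RNA came from monocytes/macrophages sorted as CD11c-Ly6G-CD11b+CD45high cells of male C57BL/6J mice aged 9 weeks. In the stroke groups the distal part of the middle cerebral artery (dMCAO) and the common carotid artery were closed for good on the left side, and cells were taken 5 days later. There were 3 libraries of sham blood, 3 of stroke blood and 3 of stroke brain. Each blood library came from 1 mouse and each brain library from a pool of 5 mice, so a brain library averages over animals where a blood library does not. A high CD45 level separates blood-derived cells from most microglia, the resident macrophages of the brain, but activated microglia can enter the same gate.

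IL-1β is made mainly by myeloid cells. IL-1α and IL-1β bind the receptor IL-1R1, which then recruits the accessory protein IL-1RAP and signals through MyD88 and IRAK kinases to NF-κB. IL-1β and IL-18 are made as inactive precursors that caspase-1 cuts inside inflammasomes, whereas the IL-1α precursor is already active. Inhibitors act at each step: the antagonist IL-1Ra, the product of Il1rn, occupies the receptor, the decoy IL-1R2 binds ligand without signaling, and IL-18BP captures IL-18 in solution. IL-1 is among the best known inflammatory mediators of the ischemic brain.

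The members lie in a few places of the genome (GRCm38). Il1a (chr2:129299610-129309972) and Il1b (chr2:129364570-129371139) lie 54.6 kb apart on the minus strand, and Il1rn (chr2:24336853-24351494) lies far from them on the plus strand of the same chromosome. Il1r2 (chr1:40074079-40125231) and Il1r1 (chr1:40225080-40317257) are neighbours on the plus strand, 99.8 kb apart. Il1rap (chr16:26581704-26730117), Il18 (chr9:50554827-50581840) and Il18bp (chr7:102014885-102018690, minus strand) stand alone. The promoters of the 3 ligands are shown because 2 of the ligands differed between brain and blood and the third was not called. Each line gives the 250 bases before the RefSeq start (GRCm38.p6), 5′ to 3′ on the gene's own strand, with the letters of the motifs found in capitals.
Il1a promoter, chr2:129309973-129310222, minus strand: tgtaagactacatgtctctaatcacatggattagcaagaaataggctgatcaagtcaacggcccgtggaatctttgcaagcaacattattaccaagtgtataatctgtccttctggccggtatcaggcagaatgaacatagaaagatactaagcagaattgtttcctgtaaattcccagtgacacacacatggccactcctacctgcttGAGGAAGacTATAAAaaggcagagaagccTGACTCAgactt
Il1b promoter, chr2:129371140-129371389, minus strand: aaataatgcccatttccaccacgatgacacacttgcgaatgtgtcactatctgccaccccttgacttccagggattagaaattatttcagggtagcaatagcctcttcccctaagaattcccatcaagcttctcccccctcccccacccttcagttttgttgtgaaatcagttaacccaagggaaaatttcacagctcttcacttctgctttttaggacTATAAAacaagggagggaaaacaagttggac
Il18 promoter, chr9:50554450-50554699, plus strand: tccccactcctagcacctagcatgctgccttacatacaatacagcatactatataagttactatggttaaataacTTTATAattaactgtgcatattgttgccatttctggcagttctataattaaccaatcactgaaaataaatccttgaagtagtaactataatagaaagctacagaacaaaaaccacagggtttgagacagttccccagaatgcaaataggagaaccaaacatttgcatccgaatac

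A TATA box (TATAAA) began 32 bases before the start of Il1a and 31 bases before that of Il1b. Such letters on the gene's strand, 20 to 40 bases before the start, were found in 1.91% of all 32851 promoter windows. The Il18 window had no TATA box there, and its capitals mark the reverse match TTTATA, 175 to 170 bases before the start; TATAAA on either strand was found in 12.4% of windows. Il1a also held GAGGAAG, the letters searched for PU.1, from base 41 to base 35 before the start, and TGACTCA, an AP-1 match (TGANTCA), from base 12 to base 6. The PU.1 letters were found in 10.6% of windows and the AP-1 letters in 6.75%, both strands searched. None of the 3 windows held TTGCNNAA (C/EBP, 9.56% of windows), TGACGTCA (CRE, 1.55%) or the κB motif (7.25%), which says only that these letters are not there.

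Total counts were 18475118 to 22623578 per library. Levels are given as CPM, counts relative to the library total, with TMM scaling between libraries. The labelled cell type was checked against its markers. Csf1r, the receptor for the macrophage growth factor CSF1, was at 2208 to 3704 CPM in the 9 libraries. Ly6g, the neutrophil antigen that was sorted out, was at most 0.838 CPM. The 7 monocyte/macrophage markers summed to 40970 to 47560 CPM in the brain and 99820 to 107500 CPM in stroke blood. Of these, 1 was lower in the brain and 0 higher by edgeR (fold change above 2, adjusted p below 0.05). Lyz2 was at 38100 ± 2534 CPM in the brain and 97840 ± 3032 CPM in stroke blood (SD, n = 3). Cd68 went the other way, at 1500 ± 184 and 1039 ± 168 CPM. Other cell markers differed between groups. Microglial markers were higher in the brain for 9 of 9 genes, with a summed level of 1394 to 4001 CPM in the brain and 149.4 to 209.2 CPM in blood, and Sall1 had no count in blood. Of the dissociation and early response genes, which rise when cells are handled warm, 8 of 10 were higher in the brain than in stroke blood (summed level 10070 to 13630 CPM in the brain, 1909 to 4401 CPM in blood). Between brain and stroke blood, 13.1% of all genes tested were higher by the edgeR test. Brain cells were enzymatically dissociated and blood cells were not, so tissue and preparation cannot be told apart. Sham blood replicate 3 had the highest summed level of neutrophil markers, 3369 CPM against 679.7 to 1653 CPM in the other 8 libraries.

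**Figure D1:**
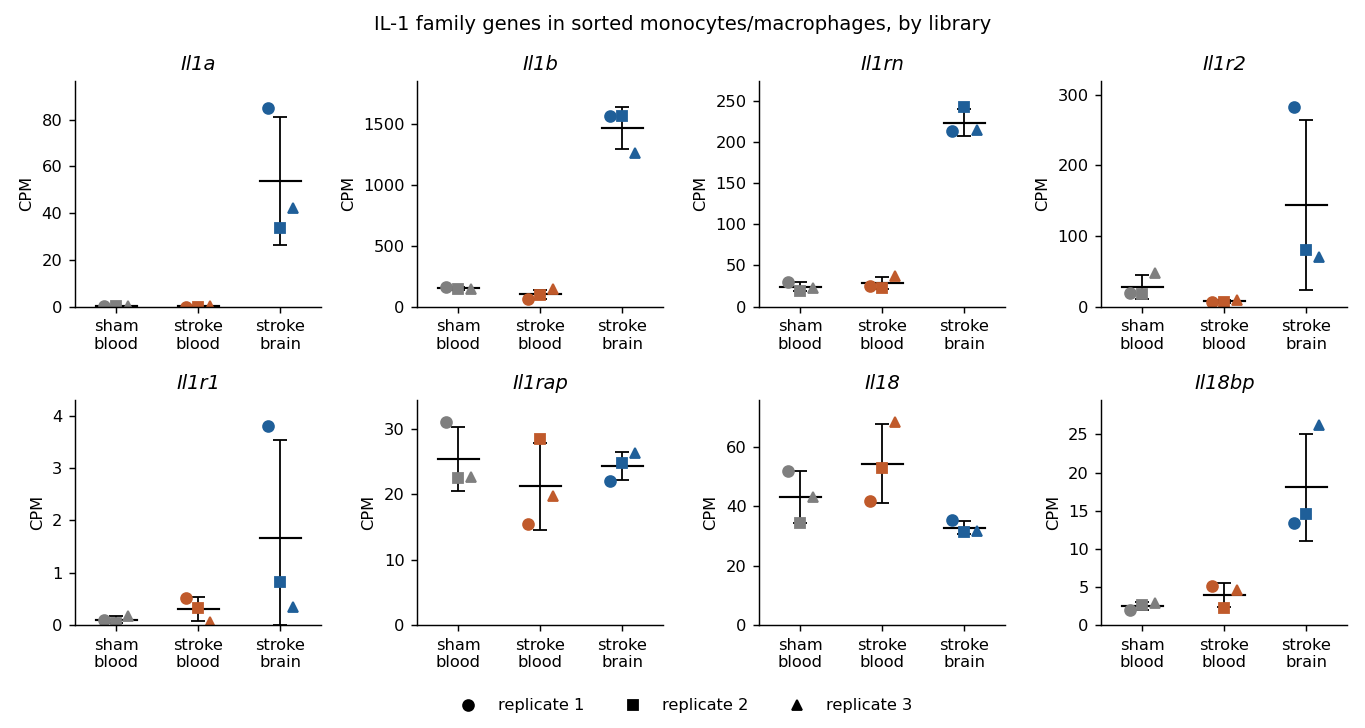
Levels of the 8 IL-1 family genes in each library, in CPM on linear axes that start at 0. Points are libraries (circle, square and triangle for replicates 1, 2 and 3), horizontal lines are group means and bars are 1 SD, drawn no lower than 0. Il1a, Il1b, Il1rn, Il1r2 and Il18bp are higher in all 3 brain libraries than in every blood library, while Il1rap overlaps between all groups.

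The comparison of stroke brain with stroke blood asks how these genes differ between cells sorted from the injured hemisphere and cells sorted from blood. Both were taken on the same day after stroke, so these are not the same cells before and after entry. Both IL-1 agonists, the antagonist, the decoy receptor and the IL-18 inhibitor were higher in the brain. The signaling receptor Il1r1, the accessory chain and Il18 were not called, although Il18 was lower in all brain libraries than in stroke blood. Of the 8 members, all of which passed the filter on low counts, 5 were called higher and 0 lower by edgeR (fold change above 2, adjusted p below 0.05). Over all 13189 genes tested, 21.0% were called and 13.1% were called higher. The groups did not overlap for 6 of the 8 members, 5 of them higher in the brain, against 48.2% of all genes. The median log2 fold change of the members was 2.73, against 0.06 over all genes tested. In these bulk samples, fewer cells of a type and less RNA per cell cannot be told apart.

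Among the ligands, Il1a was almost absent from blood. Its counts were 0, 0 and 1 in the 3 stroke blood libraries, 2, 5 and 4 in sham blood, and 1748, 815 and 967 in the brain. In CPM the brain libraries were at 85.1, 33.8 and 42.1 (53.7 ± 27.5, SD, n = 3). Every brain library stood far above every blood library. At equal depth the ratio of brain to stroke blood was 3000, with an exact 95% interval of 538 to 119000. The interval is wide because it rests on 1 count, and it covers the error of counting reads only. edgeR fitted a log2 fold change of 11.19 (SE 0.71, adjusted p 2e-05), a value that depends on the prior count and became 13.19 without stroke blood replicate 3, the library with that count. Against sham blood, with 11 counts in the group, the ratio was 283 (158 to 568) and the log2 fold change 8.14 (SE 0.54, adjusted p 0.000239, edgeR).

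Il1b, the main secreted agonist, was present in every library. It was at 158.4, 143.3 and 142.5 CPM in sham blood, 60.5, 95.1 and 140.3 CPM in stroke blood, and 1559, 1563 and 1262 CPM in the brain. The lowest brain library was thus well above the highest blood library, and the blood groups met near 140 CPM without overlapping. By count, Il1b ranked 56, 60 and 79 among all genes in the brain libraries and between 1102 and 2676 in the blood libraries. From stroke blood to brain the log2 fold change was 3.93 (SE 0.30, adjusted p 3.83e-05, edgeR). From sham blood to brain it was 3.30 (SE 0.15, adjusted p 0.000141, edgeR).

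Exons of both ligand genes overlap a noncoding gene on the other strand, Gm14023 for Il1a and Il1bos for Il1b. The libraries were made from cDNA with Nextera XT, which does not keep the strand of the RNA. Reads in exons shared by such a pair therefore cannot be told apart by strand, whatever setting the counting used. Il1bos had between 2 and 9 counts in each library and Gm14023 between 5 and 71, fewer than Il1b in all groups and Il1a in the brain. Reads in shared exons may be missing from both counts or be placed in the wrong one. The counts of the partner therefore do not measure how many reads were mixed or lost. In blood, Gm14023 had at least as many counts as Il1a, so the few counts of Il1a there cannot be assigned with certainty.

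Il1rn encodes the receptor antagonist that competes with both agonists. Its levels were 30.1, 19.04 and 22.9 CPM in sham blood, 25.5, 22.9 and 37.2 CPM in stroke blood, and 213.1, 242.6 and 214.7 CPM in the brain. The brain libraries lay close together (CV 7.44%) and far from blood, while the blood groups overlapped. Log2 fold changes to brain were 3.01 from stroke blood (SE 0.21, adjusted p 2.42e-05) and 3.22 from sham blood (SE 0.20, adjusted p 0.000223), both by edgeR.

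Il1r2, the decoy receptor, was lowest in stroke blood and highest in the brain and was the most uneven of the called members within the brain. It was at 18.7, 17.2 and 47.0 CPM in sham blood, 5.86, 6.68 and 9.51 CPM in stroke blood, and 281.7, 79.4 and 69.8 CPM in the brain. No pair of groups overlapped, and brain replicate 1 was 3.78 times the mean of the other two. The log2 fold change from stroke blood to brain was 4.33 (SE 0.56, adjusted p 0.000584, edgeR), and 3.38 without brain replicate 1. From sham blood to brain it was 2.38 (SE 0.63, adjusted p 0.0353, edgeR). That call was lost without brain replicate 1 (1.43, adjusted p 0.0629), sham replicate 1 (2.17, adjusted p 0.1) or sham replicate 2 (2.13, adjusted p 0.114). Without sham replicate 3 the log2 fold change was 3.00.

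The signaling receptor chains were low or level. Il1r1 had 2, 1 and 3 counts in sham blood, 10, 7 and 1 in stroke blood, and 78, 20 and 8 in the brain, or 3.798, 0.83 and 0.35 CPM there. Brain replicate 1 held most of these counts, and brain replicate 3 overlapped with stroke blood. The log2 fold change from stroke blood was 2.45 (SE 0.99, adjusted p 0.0911, edgeR), which did not pass the test, and it was 0.97 without brain replicate 1 and up to 3.01 with other libraries left out. Against sham blood Il1r1 did not pass the filter on low counts. The ratio of counts at equal depth was 15.6 (exact 95% interval 6.93 to 43.5). The interval covers the error of counting reads and not the spread between libraries. Without the filter edgeR called this difference (log2 fold change 3.92, adjusted p 0.0234), as did DESeq2 (4.01, adjusted p 0.00387) and the fit with all 9 libraries (3.94, adjusted p 0.0258). Of the 4 left-out fits in which it passed the filter, 1 called it, without brain replicate 3 (adjusted p 0.0307), and 3 did not, without sham replicate 1, 2 or 3 (adjusted p 0.1, 0.124 and 0.0937).

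Il1rap, the accessory chain shared with the IL-33 and IL-36 receptors, was at 31.1, 22.5 and 22.7 CPM in sham blood, 15.4, 28.5 and 19.8 CPM in stroke blood, and 22.0, 24.7 and 26.3 CPM in the brain. All 3 groups overlapped. The log2 fold change from stroke blood to brain was 0.22 (95% interval -0.28 to 0.72, adjusted p 0.544, edgeR), an interval that leaves out a doubling. Against sham blood it was -0.07 (-0.45 to 0.31, adjusted p 0.837, edgeR), and it was 0.06 when only library size was used for scaling, so its sign is not settled. The overlapping antisense gene Gm20319 had no count.

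Il18 and its inhibitor went different ways. Il18 was at 51.9, 34.3 and 43.2 CPM in sham blood, 41.8, 53.0 and 68.5 CPM in stroke blood, and 35.3, 31.4 and 31.7 CPM in the brain. The brain libraries were all below stroke blood but overlapped with sham blood. From stroke blood the log2 fold change was -0.69 (SE 0.21, adjusted p 0.0316, edgeR), past the threshold on p and under that on size, so Il18 was not called. From sham blood it was -0.40 (SE 0.19, adjusted p 0.181, edgeR).

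Il18bp, which captures IL-18 outside the cell, was at 1.99, 2.56 and 2.93 CPM in sham blood, 5.10, 2.18 and 4.55 CPM in stroke blood, and 13.4, 14.6 and 26.2 CPM in the brain. All brain libraries were above all blood libraries. By edgeR the log2 fold change was 2.24 from stroke blood (SE 0.39, adjusted p 0.00286) and 2.85 from sham blood (SE 0.35, adjusted p 0.00225). Il18bp exons overlap Numa1 on the other strand, which was at 45.5 ± 9.44 CPM in sham blood, 34.0 ± 10.6 CPM in stroke blood and 44.6 ± 9.25 CPM in the brain (SD, n = 3). Reads in exons shared by this pair cannot be told apart by strand either.

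**Figure D2:**
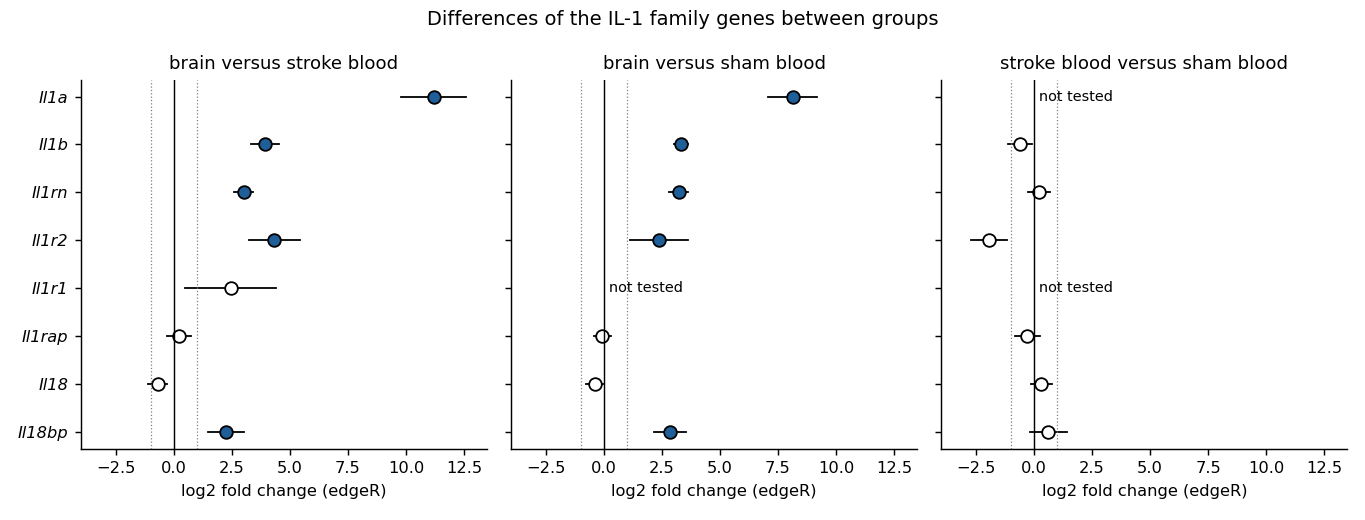
Log2 fold changes of the 8 genes by edgeR in the 3 comparisons, with 95% intervals from the standard error. Filled points were called, open points were not, dotted lines mark a log2 fold change of 1 in each direction, and "not tested" marks genes that did not pass the filter on low counts. The called points are Il1a, Il1b, Il1rn, Il1r2 and Il18bp in both comparisons with the brain, and there are none between the blood groups.

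The comparison of brain with sham blood used the same brain libraries and is therefore not independent of the one above. Of the 7 members tested, 5 were called higher and 0 lower, and the groups did not overlap for the same number. Over all 13020 genes, 13.4% were called, 9.75% were called higher, and the groups did not overlap for 41.2%. The members' median log2 fold change was 2.85, against 0.01 over all genes.

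The comparison of stroke with sham blood asks how the circulating cells differ after stroke. None of the 6 members tested was called by edgeR, although 2 had an unadjusted p below 0.05, and DESeq2 called 1. Over all 12664 genes edgeR called a single gene, or 0.0079%. The blood groups did not overlap for 2 of the 6 members, Il1b and Il1r2, both lower after stroke, against 18.1% of all genes. For Il1r2 the log2 fold change was -1.94 (SE 0.40, unadjusted p 0.00088, adjusted p 0.285, edgeR). DESeq2 gave -1.95 with an adjusted p of 0.000172, and edgeR without the filter on low counts gave -1.97 with 0.000268. It was -1.33 without sham replicate 3, the library with the highest Il1r2 level in blood and the highest neutrophil marker sum. Neutrophils are a known source of Il1r2. Of the 10 neutrophil markers, 4 were highest in that library among all 9: Cxcr2, a neutrophil chemokine receptor, at 7.91 CPM, S100a8 at 976.9 CPM, S100a9 at 263.5 CPM and Mmp8 at 1302 CPM, of which monocytes also make the S100 genes. The other 6 were not, and the granule genes Camp (1.83 CPM), Ngp (8.74 CPM) and Ltf (4.32 CPM) were lower there than in sham replicate 1. Mmp8 was at 417.8 to 548.8 CPM in the blood libraries other than sham replicate 3. The classical monocyte markers also had their highest sum in sham replicate 3, at 33230 CPM against 11760 to 17610 CPM in the other blood libraries. Of these 6 markers, 4 were highest there among all 9 libraries. The part of either marker list in the Il1r2 level was not tested.

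Il1b differed from sham to stroke blood by a log2 fold change of -0.62 (SE 0.27, unadjusted p 0.0441, adjusted p 0.391, edgeR). The 3 stroke blood libraries spread from 60.5 to 140.3 CPM, more widely than the sham libraries. Il1rn (0.21, adjusted p 0.734), Il18 (0.30, adjusted p 0.603), Il18bp (0.62, adjusted p 0.541) and Il1rap (-0.29, adjusted p 0.666) were not called either, by edgeR.

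Per kilobase of exon, the order of the members differed between groups. The length covers the exons of all annotated transcripts of a gene, 5535 bases for Il1rn and 1907 for Il1b. It can exceed the length of the transcripts present, so levels of different genes compare only roughly. In CPM without this length, the brain mean of Il1rn (223.4) was above that of Il1r2 (143.6). In the brain Il1b led at 766.3 ± 90.5 CPM per kb (SD, n = 3), followed by Il1r2 at 75.3 ± 62.7, Il1rn at 40.4 ± 3.00, Il18 at 31.8 ± 2.11 and Il1a at 27.2 ± 13.9. Il18bp was at 5.97 ± 2.33 CPM per kb, Il1rap at 2.14 ± 0.19 and Il1r1 at 0.26 ± 0.29. The libraries of neighbours in this order overlapped for Il1r2 with Il1rn and for Il18 with Il1a, and for no other pair. In stroke blood Il18 (52.8 ± 13.02 CPM per kb) and Il1b (51.7 ± 21.0) shared the top and overlapped. In sham blood Il1b (77.6 ± 4.71 CPM per kb) was above Il18 (41.8 ± 8.53) in every library. Transcripts for the decoy exceeded those for the signaling receptor Il1r1 in all 9 libraries.

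**Figure D3:**
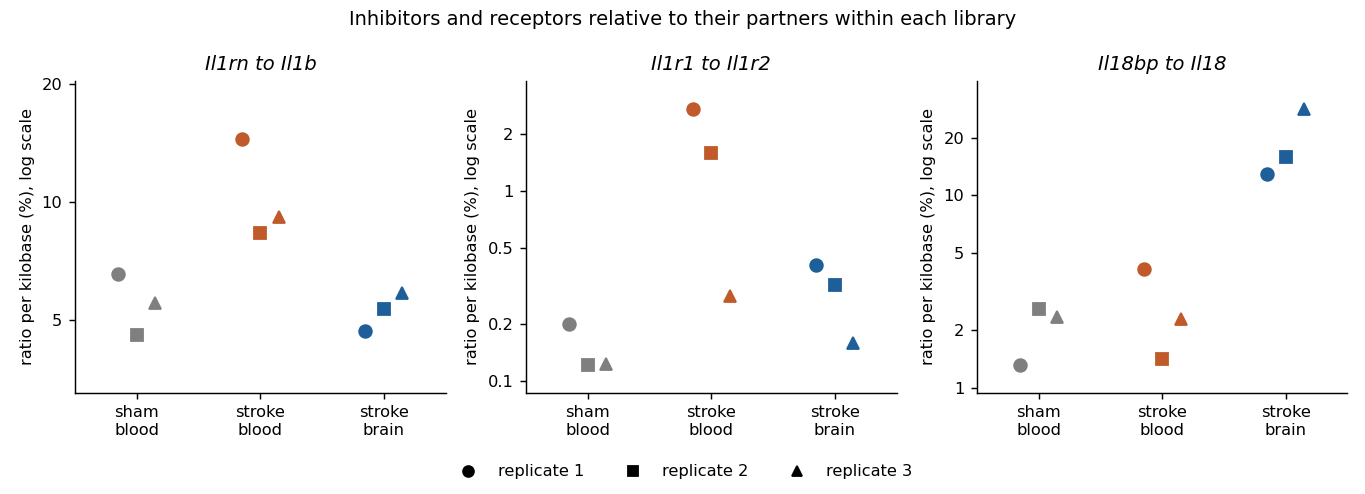
Ratios of counts per kilobase of exon within each library, as a percentage on log axes: Il1rn to Il1b, Il1r1 to Il1r2 and Il18bp to Il18. Points are libraries. Il18bp to Il18 is 12.9% to 28.1% in the brain and 1.32% to 4.17% in blood, and Il1rn to Il1b is higher in stroke blood than in the other groups.

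Ratios within a library do not depend on how libraries are scaled to each other, but their size depends on the exon lengths used. Antagonist relative to agonist, Il1rn to Il1b per kilobase, was 6.55%, 4.58% and 5.54% in sham blood, 14.5%, 8.32% and 9.14% in stroke blood, and 4.71%, 5.35% and 5.86% in the brain. The brain and sham libraries overlapped, and all stroke blood libraries were above both. The mean log2 ratio was 0.97 lower in the brain than in stroke blood, or -0.97, with an exact permutation p of 0.1 (two-sided), the smallest that 3 against 3 libraries can give. It was 0.91 higher in stroke than in sham blood (exact permutation p 0.1) and differed by -0.06 between brain and sham blood (exact permutation p 0.8). Over the 9 ratio tests the adjusted p was 0.18 for each of those at the smallest p.

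Inhibitor relative to cytokine, Il18bp to Il18, was 1.32%, 2.57% and 2.34% in sham blood, 4.17%, 1.42% and 2.28% in stroke blood, and 12.9%, 15.9% and 28.1% in the brain. Every brain library was above every blood library. The log2 ratio differed by 2.92 from stroke blood and by 3.17 from sham blood (exact permutation p 0.1 for each). Between the blood groups the difference was 0.25 (exact permutation p 0.8).

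Signaling relative to decoy receptor, Il1r1 to Il1r2, was 0.2%, 0.121% and 0.123% in sham blood, 2.73%, 1.59% and 0.282% in stroke blood, and 0.407%, 0.321% and 0.159% in the brain. Stroke blood was above sham blood in all libraries (difference 2.89, exact permutation p 0.1), on 1 to 10 counts of Il1r1 per library. Brain overlapped with both blood groups (exact permutation p 0.3 against stroke blood and 0.2 against sham blood).

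Within the brain the members fell into even and uneven ones. The highest library exceeded the lowest by 1.13 to 1.24 times for Il18, Il1rn, Il1rap and Il1b. The range was 1.96 times for Il18bp, 2.52 times for Il1a, 4.04 times for Il1r2 and 10.9 times for Il1r1. Replicate 1 was the highest for Il1a, Il1r2 and Il1r1, and replicate 3 for Il18bp. A further 3 pathway genes, picked for a large excess after their values were seen, were also highest in replicate 1: Il33 at 11.8, 0.62 and 0.35 CPM, the RNase gene Zc3h12a at 22.98, 1.95 and 2.57 CPM, and the inflammasome sensor Nlrp3 at 34.3, 7.06 and 8.50 CPM. They do not stand for the whole list. More pathway genes were highest there, such as Tnfaip3 (335.1, 190.4 and 186.7 CPM). Others were lowest there, such as Il18r1 (2.92, 5.69 and 9.28 CPM) and Cebpb (874.4, 1461 and 1370 CPM). Microglial markers summed to 1394, 2088 and 4001 CPM in the same 3 libraries, lowest in replicate 1, and neutrophil markers to 1259, 1045 and 1653 CPM. Highest in replicate 1 were the sums of the non-classical monocyte markers, at 4234, 1578 and 1881 CPM, and the dendritic cell markers, at 966.4, 746.0 and 753.6 CPM. Most of the former excess was Nr4a1, also an early response gene, at 3105, 689.7 and 863.6 CPM. Ace, Spn and Itgal were also highest in replicate 1, but Treml4 (249.2, 278.2 and 311.8 CPM) and Eno3 (83.45, 83.67 and 98.03 CPM) were lowest there. Early response genes summed to 10070, 13000 and 13630 CPM, lowest in replicate 1, although 6 of 10 were highest there among all 9 libraries. The part of these markers in the differences between replicates was not tested.

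Other marker lists also moved with the members between brain and stroke blood, where 21.0% of all genes were called and 13.1% were called higher. Dendritic cell markers were higher for 6 of 7 genes (summed 746.0 to 966.4 CPM in the brain, 110.5 to 235.9 CPM in stroke blood), among them Itgax, which encodes the CD11c used to sort cells out. Markers of border-associated macrophages were higher for 5 of the 5 tested (summed 124.2 to 299.9 CPM in the brain, 31.1 to 49.0 CPM in stroke blood). Neutrophil markers were higher for 5 of 8 tested and lower for 1 (summed 1045 to 1653 CPM in the brain, 679.7 to 1135 CPM in stroke blood). T and NK cell markers were higher for 3 of 8 (summed 581.3 to 1195 CPM in the brain, 302.9 to 868.0 CPM in stroke blood). Classical monocyte markers were lower for 5 of 6 and platelet markers for 6 of 6. Of the 5 markers of mast cells and basophils, 1 passed the filter and 0 were called (summed 3.65 to 7.93 CPM in the brain, 0 to 4.27 CPM in stroke blood). Of the 6 markers of glia, neurons and vessels, 2 passed the filter and 0 were called. Cldn5, of vessel cells, had no count in any library. In the brain libraries Gfap had 1, 9 and 24 counts, Aqp4 had 3 in replicate 2 and Snap25 had 8 in replicate 3. The part of other cell types and of dissociation in the levels of Il1a, Il1b, Il1rn, Il1r2 and Il18bp was not tested.

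Other genes of the pathway, 43 in a list by function, were read in the same fits. Of the 35 tested between brain and stroke blood, 11 were called higher and 2 lower, against 21.0% of all genes called and 13.1% called higher, and their median log2 fold change was 0.27. Against sham blood 8 of 35 were called higher and 0 lower, against 13.4% of all genes called and 9.75% called higher. Between the blood groups edgeR called 0 of 34, with 5 at an unadjusted p below 0.05, and DESeq2 also called 0.

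The other IL-1 family ligands were nearly absent: none of the 6 passed the filter in any comparison. Il33, an alarmin stored in nuclei, had 242, 15 and 8 counts in the brain and none in any of the blood samples. Against a floor of 3 counts per library, the brain mean was at least 26.9-fold higher than that of stroke blood, and brain replicate 1 set that mean.

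Of the 7 other receptor genes of the family, 5 were tested, and 4 of these were called higher in the brain than in stroke blood: the IL-33 receptor Il1rl1 (log2 fold change 3.83, SE 0.70), the IL-36 receptor Il1rl2 (2.503, SE 0.43) and the IL-18 receptor chains Il18r1 (2.53, SE 0.55) and Il18rap (1.22, SE 0.38). Among all genes tested, 13.1% were called higher. The levels of these receptor genes were modest, with Il1rl1 at 3.20 ± 1.25 CPM and Il18r1 at 5.96 ± 3.19 CPM in the brain (SD, n = 3). Both IL-18 receptor chains are also made by T and NK cells, whose marker values stand above with those of mast cells and basophils. The part of other cell types in the levels of these receptor genes, Il1rl1 included, was not tested. Il18rap overlapped between the groups. Il1rapl1 and Il1rapl2 had no count in any library. Sigirr, an inhibitory member, was at 16.0 ± 0.73 CPM in the brain and 14.6 ± 3.55 CPM in stroke blood and was not called. Il1rl1, Il1rl2 and Il18r1 were also called higher than in sham blood.

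**Figure D4:**
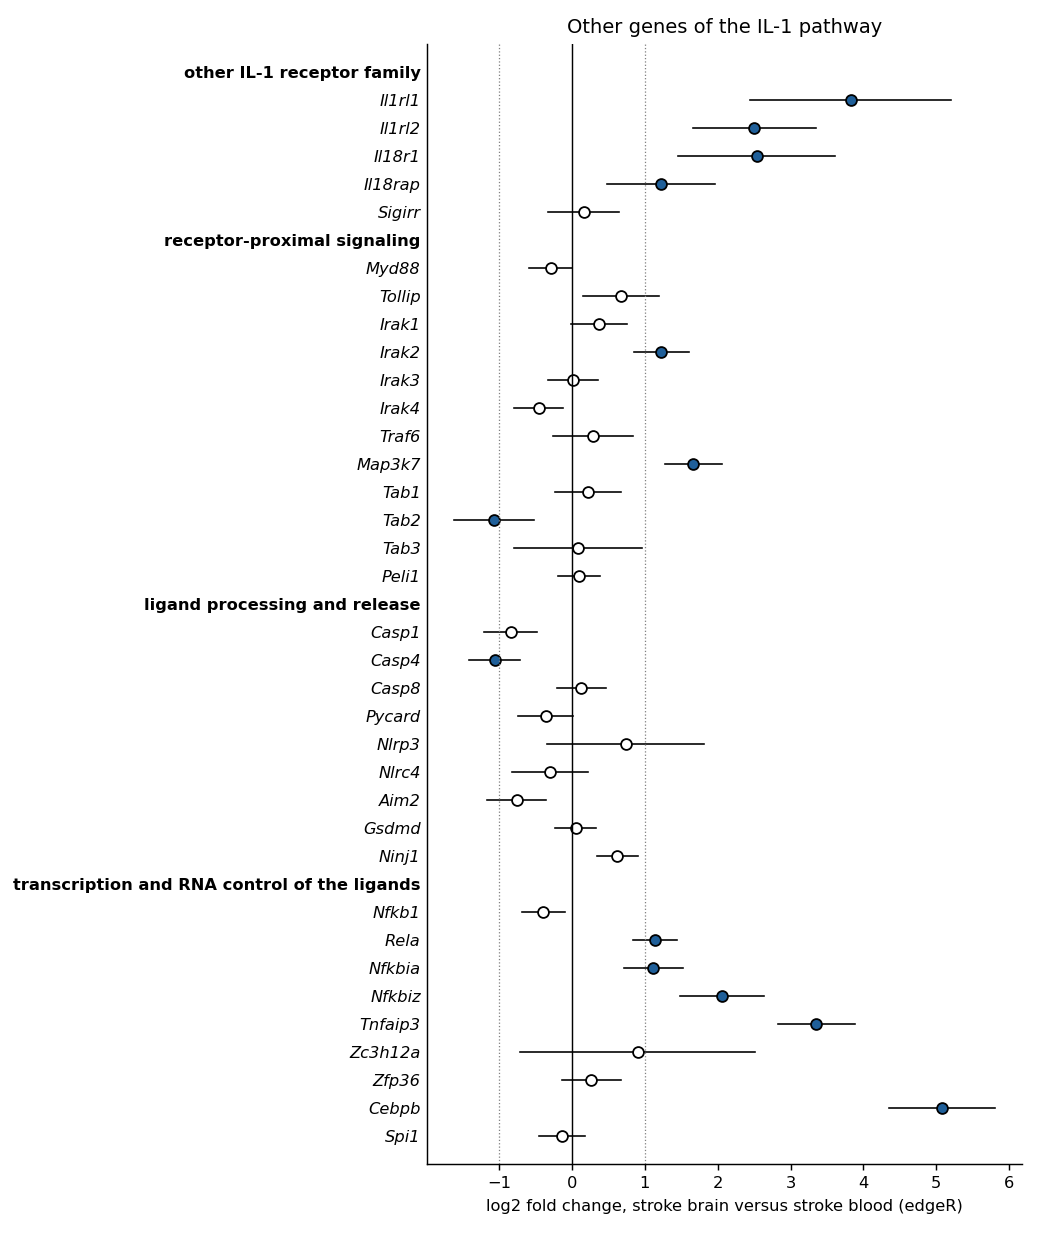
Log2 fold changes by edgeR of the 35 other pathway genes tested between stroke brain and stroke blood, grouped by function, with 95% intervals from the standard error. Filled points were called, and dotted lines mark a log2 fold change of 1 in each direction. The largest differences are those of Cebpb, Il1rl1 and Tnfaip3, and most signaling and processing genes lie between the dotted lines.

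Genes for signaling next to the receptor were mostly within the threshold. Between brain and stroke blood, 21.0% of all genes were called and 13.1% were called higher. Of 12 tested, the kinase genes Irak2 (log2 fold change 1.23, SE 0.19) and Map3k7 (1.67, SE 0.20) were higher than in stroke blood and the adaptor gene Tab2 (-1.07, SE 0.28) was lower. Myd88, the adaptor of the pathway, was at 250.1 ± 35.4 CPM in the brain and 312.8 ± 6.10 CPM in stroke blood (adjusted p 0.176, edgeR). Irak2 alone was also called higher than in sham blood.

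Of 9 genes tested for processing and release of the ligands, 0 were called higher and 1 lower in the brain than in stroke blood, against 13.1% of all genes called higher, so few calls say little about a list of this length. The gene called lower was the inflammatory caspase gene Casp4 (log2 fold change -1.06, SE 0.18). Casp1, whose product cuts the precursors of IL-1β and IL-18, was at 72.4 ± 12.4 CPM in the brain and 133.1 ± 22.5 CPM in stroke blood (log2 fold change -0.84, adjusted p 0.00831, edgeR), past the threshold on p and under that on size. Ninj1, which acts in membrane rupture, was in the same state in the other direction, at 376.9 ± 37.7 CPM in the brain and 251.1 ± 16.3 CPM in stroke blood (0.62, adjusted p 0.0105, edgeR), and so was the DNA sensor Aim2 (-0.76, adjusted p 0.0223, edgeR) on the lower side. The inflammasome adaptor Pycard (-0.36, adjusted p 0.186) and the pore-forming Gsdmd (0.05, adjusted p 0.817) were not called by edgeR.

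Of 9 genes tested that control the ligands' transcription and RNA, 5 were called higher in the brain than in stroke blood and 0 lower. The share called higher over all genes was 13.1%. Cebpb, a transcription factor of myeloid cells known to act on Il1b, was at 26.9 ± 7.95 CPM in sham blood, 37.6 ± 17.0 CPM in stroke blood and 1235 ± 316 CPM in the brain (log2 fold change from stroke blood 5.08, SE 0.37, adjusted p 3.22e-05, edgeR). The NF-κB feedback genes Tnfaip3 (3.35, SE 0.27), Nfkbiz (2.06, SE 0.29) and Nfkbia (1.12, SE 0.21) and the NF-κB subunit gene Rela (1.14, SE 0.15) were the others. Spi1, which encodes PU.1, was at 767.7 ± 81.4 CPM in the brain and 866.5 ± 135 CPM in stroke blood and was not called. All but Rela were also called higher than in sham blood.

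These pathway calls were less stable than those of the members. Between brain and stroke blood, 9 of the 13 called genes kept their call whichever library was left out. Il18rap and Tab2 were each called in 2 of 6 such fits, Nfkbia in 4 and Casp4 in 5. Against sham blood only Cebpb and Tnfaip3 of the 8 kept theirs in all 6. The number called there was 3 without sham replicate 3, and 4 without sham replicate 2, brain replicate 2 or brain replicate 3.

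The genes whose levels followed each member most closely over the 9 libraries were searched among 7679 genes with a mean of at least 10 CPM. By Pearson correlation of log2 CPM, the nearest to Il1a were Rgs1 (r = 0.99), Spp1 and Hps4, to Il1b Pfkfb3 (r = 0.99), Avpi1 and Rab7b, and to Il1rn Arg1 (r = 0.998), Junb and Fth1. Mcm4 (r = 0.97), Uck2 and Mapk8ip3 were nearest to Il1r2, and Nop58 (r = 0.97), St6galnac4 and Itgb5 to Il18bp. For most of these the points are 3 brain libraries apart from 6 blood libraries, so the correlation largely restates that separation. Arg1, an enzyme of arginine breakdown, was at 0.168, 0.407 and 59.7 CPM in sham blood, stroke blood and brain, as group means, and Spp1, which encodes osteopontin, at 3.60, 1.21 and 2200 CPM.

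For the members not called between brain and stroke blood, the nearest genes were Urgcp (r = 0.93), Cul2 and Acbd5 for Il1rap, and Lancl2 (r = 0.95), Gm29216 and Csnk1a1 for Il18. For Il1r1 they were Rps6kb1 (r = 0.94), Wdr13 and Ube2s, whose levels in blood rest on far more counts than those of Il1r1. By rank correlation only 3 of these 24 nearest genes stayed among the nearest. Between members, r was 0.99 for Il1a with Il1b and 0.96 for Il1b with Il1rn, and -0.65 for Il1b with Il18, over the same 9 libraries.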

How the data were processed

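The authors sorted the cells, made cDNA with SMART-Seq HT, built libraries from it with Nextera XT, and sequenced them paired-end on a NextSeq. In Chipster, HISAT2 aligned the reads to GRCm38 and HTSeq counted reads by gene. The deposited values are these raw counts, not normalized. Software versions, the annotation release and the strand setting are not given in the sources used here.

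GENCODE M21 gave symbols, exon lengths and overlaps and matched 53620 of the 53801 identifiers. Exon length was the union of the exons of all transcripts of a gene. Groups and replicate numbers came from the sample labels. Separate mice or pools are replicates, and replicates differed beyond counting noise.

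With R 4.3.3, the quasi-likelihood test of edgeR 4.0.16 was run on all genes that passed its default filter, in fits of the 2 groups compared, with TMM scaling and Benjamini-Hochberg adjustment. Called genes had an adjusted p below 0.05 and a fold change above 2 in either direction. Standard errors are the log2 fold change divided by the root of F, and 95% intervals are normal. Ratios used a prior of 0.5 counts and exact two-sided permutation tests. Genes near a member were the 3 with the highest Pearson correlation. Tables used Python 3.11.15, pandas 2.3.3 and scipy 1.17.1. edgeR was tested on simulated data.

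The members and lists were chosen with earlier results of these data known. All members are named with their values. Pathway genes are named where called against the brain or as partners of a member; others of the fixed lists that were not called (Sigirr, Gsdmd, Pycard, Ninj1, Aim2, Nlrp3, Zc3h12a and Spi1 among them) were named after their values were seen. Alternatives were DESeq2 1.42.0, RLE, library size only and upper-quartile scaling, no filter, 1 fit of all 9 libraries, a block for the replicate number, other thresholds and each library left out in turn. PCR libraries without molecular identifiers were counted, so copies of a molecule count as separate reads. The exact intervals and floors cover the error of counting reads only, and can be too narrow for molecules.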

Additional observations from a re-analysis of the deposited data

How the results depend on the processing

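Of 273 log2 fold changes of the members under the alternatives, 264 kept their direction and their side of the threshold, 4 lost the call, 2 gained it and 3 changed sign. The 5 calls between brain and stroke blood held in every alternative. Leaving out a library moved Il1rn from stroke to sham blood between -0.014 and 0.409, and Il1rap from brain to sham blood between -0.159 and 0.106, where scaling by library size only gave 0.057. The log2 ratio of Il1rn to Il1b between brain and sham blood was -0.189 to 0.068, and that of Il18bp to Il18 between the blood groups -0.152 to 0.628. Between stroke and sham blood the number of genes called was 135 with DESeq2, 160 without the filter, 0 to 16 with a library left out and 0 at an adjusted p under 0.01. DESeq2 called 1 member there, and fitting without the filter called 1 member and 1 pathway gene. At an adjusted p under 0.01 there were 1793 genes between brain and stroke blood, and 792 genes and 2 pathway genes between brain and sham blood. With a library left out the latter had 1146 to 1883 genes and 3 to 7 pathway genes. By Spearman correlation 3 of 24 nearest genes were shared, and with log2(CPM + 1) 21 were. The causes were not tested.

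Replicate numbers did not pair the libraries: same-numbered libraries correlated at -0.07 to 0.07 in their deviations from the group means. With the replicate block, Il1r2 was at 2.22 between brain and sham blood (adjusted p 0.07, edgeR), no longer called, and no other member's call changed. At 18475118 counts or more per library, Il1a in stroke blood and Il1r1 in sham blood stayed at or under the floor of 3 counts per library.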
